A study of Mus musculus with 20 samples.

Results

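The genes described here encode the nuclear-encoded subunits of respiratory complexes III and IV and of ATP synthase, complex V. They were taken by symbol, as each gene whose symbol begins with Uqcr, with Cox4 to Cox8 or with Atp5, leaving out symbols that end in -ps. The rule found 43 of the 32285 genes in the table: 8 of complex III, 18 of complex IV and 17 of complex V. It uses no measured value. It also takes in Cox7a2l, which helps complexes III and IV associate, and several isoform genes with a known tissue bias. Of the 43 genes, 39 passed the filter on low counts; Cox8b, Cox6b2, Cox7b2 and Cox8c did not.

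Bulk RNA was sequenced from 20 tumours of B16F10, a mouse melanoma cell line, implanted in immunocompetent C57BL/6 mice, and the labels give the genotype as wild type in each group. Of these, 5 tumours received control IgG, 5 propafenone, 5 an antibody against PD-1 (anti-PD-1), and 5 propafenone together with anti-PD-1 (the combination). The injections were intraperitoneal; treatment started at tumour volumes near 100 mm3, and tumours were collected on day 16. Propafenone is a sodium channel blocker used against cardiac arrhythmia, and PD-1 is an inhibitory receptor on T cells. The series title concerns mitochondria-associated ferroptosis and synergy with immunotherapy. The labels do not say whether each tumour came from its own mouse, so p-values measure the spread between these tumours. A bulk tumour holds melanoma and host cells, and fewer cells of a type and less RNA per cell cannot be told apart.

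Complex III passes electrons from ubiquinol to cytochrome c, complex IV passes them on to oxygen, and both pump protons across the inner mitochondrial membrane. ATP synthase lets the protons return through a ring of c subunits and uses the rotation to make ATP. Mitochondrial DNA encodes cytochrome b, the catalytic core of complex IV and a few membrane subunits of ATP synthase; nuclear genes encode all the other subunits. Some complex IV subunits have a second gene that is used mainly in heart and skeletal muscle, among them Cox6a2, Cox7a1 and Cox8b.

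Library totals ran from 56 to 64.5 M expected counts, with group means of 60.4 to 62.4 M. All 12 melanocyte markers checked were above 0 in each of the 20 tumours, and their summed level was 15100 to 24600 CPM (counts divided by a TMM-scaled library size). Some host markers moved with the groups. Skeletal muscle markers summed to 73.6 to 208 CPM in IgG, 96.4 to 203 in propafenone, 75.5 to 478 in anti-PD-1 and 106 to 774 in combination tumours. Red blood cell markers summed to 290 to 11700 CPM in IgG tumours and 172 to 453 CPM in combination tumours.

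The start regions of 6 genes are shown, since these are the subunit genes called lower in combination tumours than in IgG tumours. The windows come from RefSeq on GRCm38.p6 and reach from 250 bases before the RefSeq start to whichever of the RefSeq and GENCODE starts lies farther upstream. All 6 genes lie on the minus strand and are printed 5′ to 3′. Capitals mark exact matches to sequences bound by regulators of mitochondrial genes: CGGAAG, the core bound by ETS factors such as GABPA, and TCAAGGTCA, an element of the estrogen-related receptors (ERR). Both strands were searched, so CTTCCG and TGACCTTGA are the same elements read on the other strand.
Atp5g3: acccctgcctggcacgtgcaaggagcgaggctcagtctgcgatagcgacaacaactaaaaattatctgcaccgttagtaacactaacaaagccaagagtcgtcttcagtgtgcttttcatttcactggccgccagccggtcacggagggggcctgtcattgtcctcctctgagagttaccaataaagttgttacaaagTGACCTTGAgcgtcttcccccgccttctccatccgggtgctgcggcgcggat
Atp5c1: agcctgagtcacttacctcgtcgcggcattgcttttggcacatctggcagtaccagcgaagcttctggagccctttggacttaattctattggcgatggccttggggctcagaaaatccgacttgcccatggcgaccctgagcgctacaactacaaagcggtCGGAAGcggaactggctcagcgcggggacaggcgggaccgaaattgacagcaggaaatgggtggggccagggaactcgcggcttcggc
Cox6b1: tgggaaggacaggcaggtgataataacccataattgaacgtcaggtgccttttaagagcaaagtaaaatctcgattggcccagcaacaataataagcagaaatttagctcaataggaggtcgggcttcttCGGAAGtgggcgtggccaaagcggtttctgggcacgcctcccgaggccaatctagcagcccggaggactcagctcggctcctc
Uqcrfs1: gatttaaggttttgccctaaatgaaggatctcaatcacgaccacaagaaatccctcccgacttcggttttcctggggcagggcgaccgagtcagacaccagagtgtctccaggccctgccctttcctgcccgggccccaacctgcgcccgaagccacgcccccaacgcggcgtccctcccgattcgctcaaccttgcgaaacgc
Atp5g1: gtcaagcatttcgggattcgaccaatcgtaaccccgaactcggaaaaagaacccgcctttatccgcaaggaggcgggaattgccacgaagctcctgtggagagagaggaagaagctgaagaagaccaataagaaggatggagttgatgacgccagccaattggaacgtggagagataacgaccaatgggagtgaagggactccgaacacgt
Cox7c: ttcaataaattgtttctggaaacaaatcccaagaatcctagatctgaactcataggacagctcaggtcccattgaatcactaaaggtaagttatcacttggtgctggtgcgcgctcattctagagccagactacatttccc

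These windows lie at chr2:73911327-73911576 for Atp5g3, chr2:10080511-10080760 for Atp5c1, chr7:30626152-30626364 for Cox6b1, chr13:30545363-30545566 for Uqcrfs1, chr11:96075671-96075881 for Atp5g1 and chr13:86046905-86047045 for Cox7c. Atp5g3 holds an ERR element 52 bases before its start, and Atp5c1 holds an ETS core 88 bases before its start. Cox6b1 holds ETS cores 120 and 28 bases before its RefSeq start, and the nearer of these falls in the stretch that GENCODE counts to the gene, which is not printed. Uqcrfs1, Atp5g1 and Cox7c hold none of the sequences searched. Over the 33 genes of the set found in the promoter table, CGGAAG occurred in the 250 bases of 13 (39.4%), against 13.8% of all 27025 promoters. The NRF1 element occurred in 4 (12.1%, against 3.86%), namely Atp5g2, Atp5h, Atp5k and Cox6a1. TCAAGGTCA occurred in 1 (3.03%, against 0.366%), AAGATGGCG of YY1 in none (against 0.607%), GGGCGG of Sp1 in 11 (33.3%, against 32.9%), and CAGCTG, an E-box read by muscle factors, in 2 (6.06%, against 12.8%). The median GC content was 54% in the set and 52% over all promoters. The 27025 promoters were not limited to genes expressed in these tumours. These are matches of letters and not measured binding.

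Most of the genes were abundant in IgG tumours. Levels between genes are compared as TPM, a transcript abundance that is scaled by transcript length. The median over genes was 307 TPM for complex III, 473 for complex IV and 479 for complex V. Atp5b, the catalytic beta subunit of ATP synthase, stood first at 1920 ± 64 TPM (SD, n = 5), above 99.7% of tested genes. Atp5g3, one of the genes for the c subunit of the membrane ring, followed at 1630 ± 93.3 TPM, then Atp5a1, the alpha subunit, at 1100 ± 86 and Cox4i1, the general isoform of subunit IV, at 1010 ± 52.4. The last pair did not differ beyond its spread.

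Complex III genes lay close together, from Uqcrq at 292 TPM to Uqcr10 at 591 TPM. Uqcrc1 and Uqcrc2, the core proteins, stood at 495 ± 36.4 and 294 ± 18.1 TPM. Uqcrfs1, the Rieske iron-sulfur protein that takes electrons from ubiquinol, stood at 294 ± 27.7 TPM. Atp5k, a small subunit of the ATP synthase membrane part, was the lowest of complex V at 124 ± 10.3 TPM.

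Isoform genes with a tissue bias sat far below. Cox7a1 was at 10.8 ± 2.8 TPM, Cox4i2, the isoform known from lung, at 2.06 ± 1.25 and Cox6a2 at 0.765 ± 0.525. Their general partners Cox7a2, Cox4i1 and Cox6a1 were at 548 ± 30, 1010 ± 52.4 and 502 ± 30 TPM. Between tumours of a group the median coefficient of variation of TPM was 6.96% over the 39 tested genes and 17.7% over all 15875 tested genes. It was under 10% for 33 of the 39.

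**Figure D1:**
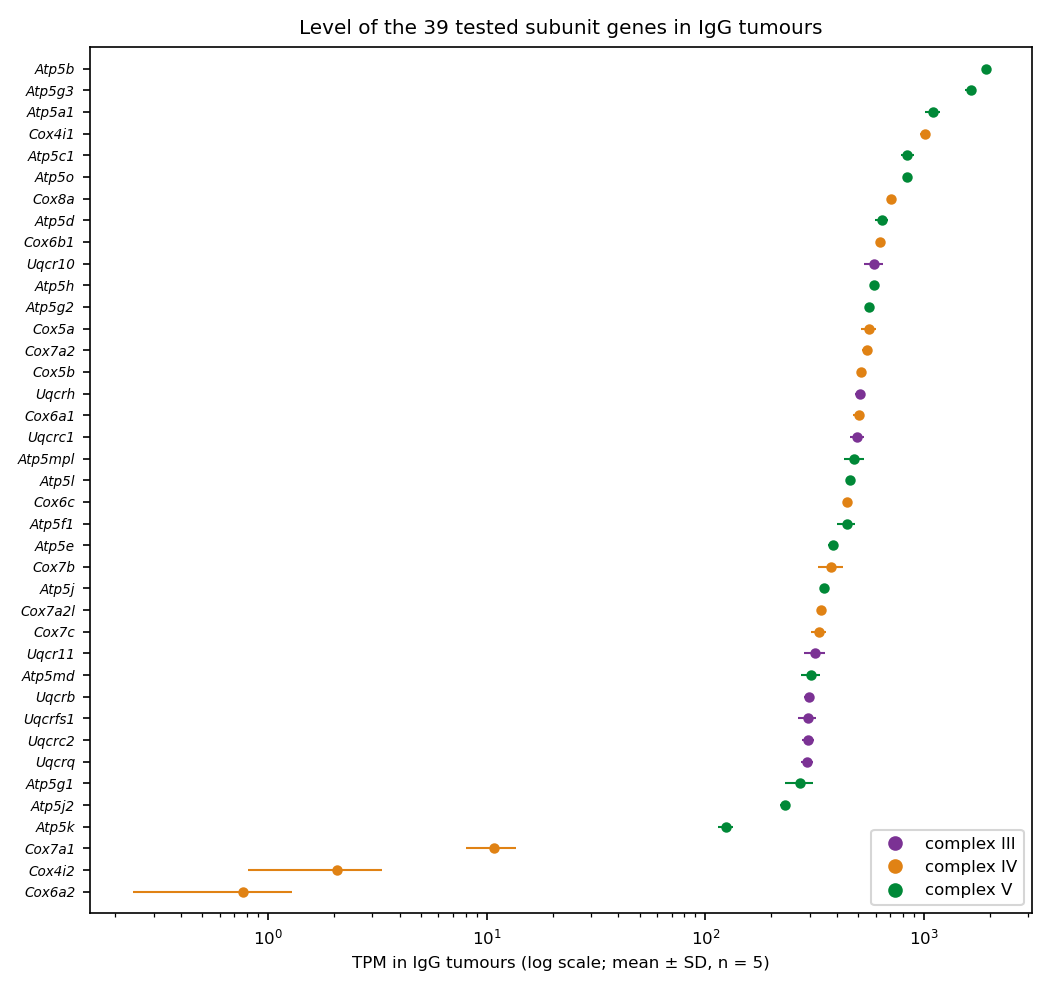
Level of each of the 39 tested subunit genes in IgG tumours, in TPM on a log axis, as mean ± SD over 5 tumours, coloured by complex. All but Cox7a1, Cox4i2 and Cox6a2 lie between 124 and 1920 TPM.

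In combination tumours against IgG tumours, 6 of the 39 tested genes were lower and 1 was higher. The lower genes were Uqcrfs1 of complex III, Cox6b1 and Cox7c of complex IV, and Atp5c1, Atp5g1 and Atp5g3 of complex V. Their levels fell by 14.5 to 22.9 percent. The higher gene was the muscle isoform Cox6a2. A gene was called at a Benjamini-Hochberg adjusted p under 0.05 in edgeR's quasi-likelihood test over all tested genes. Over those 15875 genes 2.63% were called lower and 2.24% higher. At an unadjusted p under 0.05 stood 25 of the 39, against 3741 of all tested genes.

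Uqcrfs1 (minus strand, chr13:30540308-30545362 on GRCm38) had 182, 219, 199, 195 and 196 CPM in the IgG tumours and 165, 146, 163, 159 and 150 in the combination tumours. Each combination tumour lay below each IgG tumour. The log2 fold change was -0.34 ± 0.08 (SE; edgeR, adjusted p = 0.029). Propafenone tumours spanned 178 to 219 CPM and anti-PD-1 tumours 166 to 238.

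Cox6b1, which sits on the intermembrane side of complex IV (chr7:30616861-30626151), had 183, 183, 194, 194 and 205 CPM in IgG and 162, 160, 168, 164 and 151 in combination tumours. These groups did not overlap either, and the log2 fold change was -0.25 ± 0.06 (edgeR, adjusted p = 0.026). Cox7c, a small membrane subunit of the same complex (chr13:86044816-86046904), had 85.8, 90.6, 87.8, 89.2 and 83.9 CPM in IgG and 70.5, 73.3, 79, 74.2 and 67 in combination tumours. Its combination tumours also lay below all IgG tumours, with a log2 fold change of -0.27 ± 0.07 (edgeR, adjusted p = 0.029). Cox7c has 4 annotated pseudogenes that match it at 95% identity or more over at least 100 bases, so reads could be split between them.

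Atp5g3 (chr2:73908447-73911326) had 531, 616, 567, 572 and 620 CPM in IgG and 507, 429, 482, 451 and 458 in combination tumours. The groups did not overlap, and the log2 fold change was -0.32 ± 0.08 (edgeR, adjusted p = 0.026). Atp5g1, another gene for the same mature c subunit (chr11:96068852-96075670), had 128, 166, 153, 154 and 163 CPM in IgG and 128, 119, 120, 114 and 107 in combination tumours. Here the lowest IgG tumour reached the highest combination tumour, and the log2 fold change was -0.38 ± 0.09 (edgeR, adjusted p = 0.024). Near-identical stretches of Atp5g1 occur in 20 other annotated genes, so its count is uncertain. This limit is not particular to Atp5g1: such stretches occur in 53 other genes for Atp5b, 137 for Atp5l and 128 for Atp5md.

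Atp5c1 encodes the gamma subunit, the turning shaft of ATP synthase (chr2:10056016-10080510). It had 417, 502, 469, 488 and 498 CPM in IgG and 433, 392, 409, 401 and 394 in combination tumours. IgG tumour 1 lay below combination tumour 1, and the other 4 IgG tumours lay above all combination tumours. The log2 fold change was -0.23 ± 0.06 (edgeR, adjusted p = 0.031), and 2 pseudogenes of Atp5c1 are near-identical to it.

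**Figure D2:**
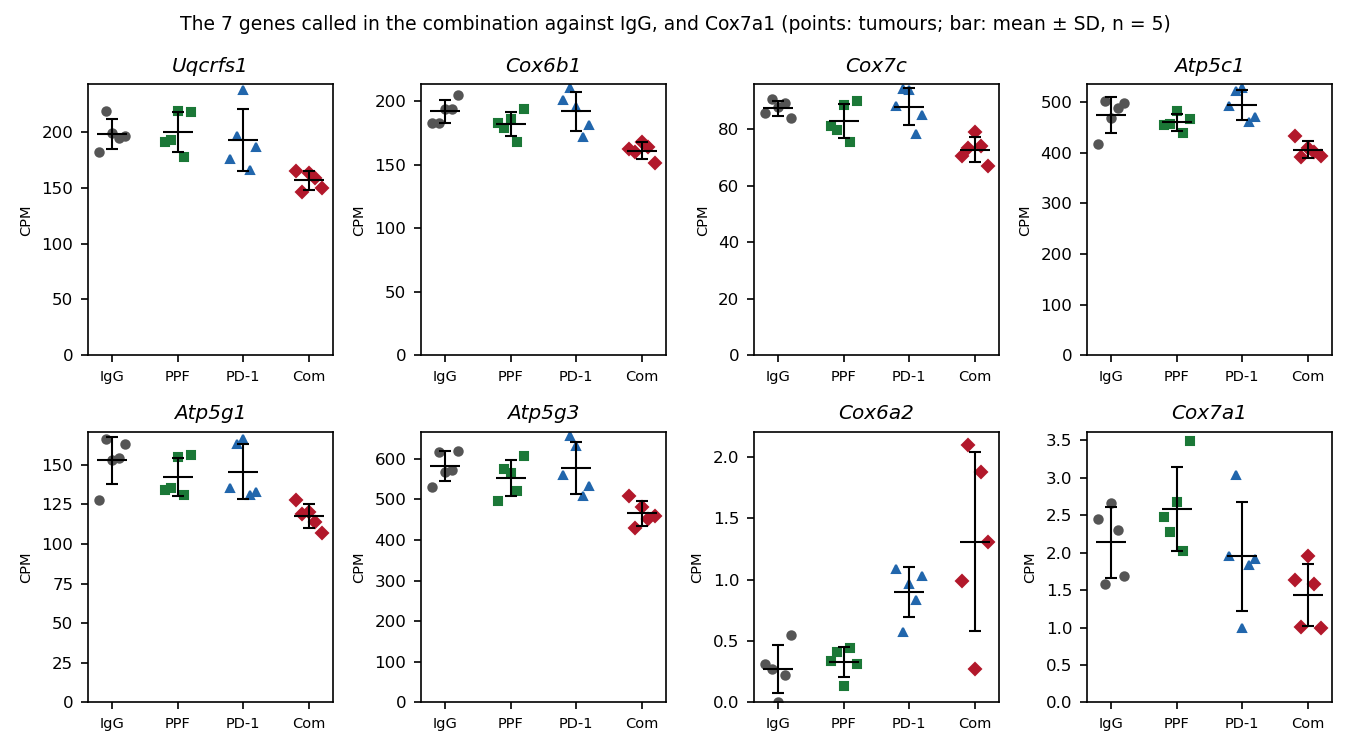
CPM of each tumour for the 7 genes called in the combination against IgG and for Cox7a1, by group (PPF, propafenone; PD-1, anti-PD-1; Com, combination), with mean ± SD over 5 tumours; axes start at 0. Combination tumours lie below all IgG tumours for Uqcrfs1, Cox6b1, Cox7c and Atp5g3, and Cox6a2 shows 1 combination tumour at 0.269 CPM beside 4 from 0.989 to 2.1.

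The other subunit genes had values in the same direction without passing. Of the 39, 37 had a log2 fold change below 0, against 51.8% of all tested genes. The median was -0.19, against -0.01 over all tested genes, and it was -0.22 for complex III, -0.20 for complex IV and -0.17 for complex V. The exceptions were Cox6a2 and Atp5j2 (0.01 ± 0.07), the f subunit of ATP synthase. Nearest to the threshold came Atp5a1 (-0.21 ± 0.06, edgeR adjusted p = 0.056), Cox5a (-0.25 ± 0.08, adjusted p = 0.058), Atp5b (-0.16 ± 0.05, adjusted p = 0.071) and Uqcrc1 (-0.27 ± 0.09, adjusted p = 0.073). Of the other general subunits of complex IV, Cox4i1, Cox8a, Cox6a1, Cox7a2 and Cox5b ran from -0.22 to -0.16 with adjusted p of 0.13 to 0.22, while Cox7b was at -0.10 ± 0.08 (adjusted p = 0.47) and Cox6c at -0.06 ± 0.08 (adjusted p = 0.64). Atp5g2 was at -0.12 ± 0.08 (adjusted p = 0.39).

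In CPM, the combination lay wholly below IgG for 9 of the 39, against 7.21% of all tested genes. It lay wholly above for none, against 4.72%. Besides the 4 called genes above, these were Uqcrq, Cox7a2l, Atp5l, Atp5d and Atp5g2, which were named after their values were seen. On TPM the groups stayed apart for Uqcrfs1, Cox6b1 and Atp5g3. They overlapped on TPM for Cox7c, Uqcrq, Cox7a2l, Atp5l, Atp5d and Atp5g2. Non-overlap was judged on CPM in the other comparisons too. The set took 0.969 ± 0.0329% of all counts in IgG, 0.951 ± 0.0286% in propafenone, 0.993 ± 0.0664% in anti-PD-1 and 0.891 ± 0.0369% in combination tumours (SD, n = 5).

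The calls changed with scaling and when host marker scores were added as covariates. The skeletal muscle score ran from -3.65 to 0.46 in IgG and from -0.79 to 2.75 in combination tumours. Host content thus moved with treatment, and their parts cannot be told apart here. On the authors' TPM values the median of the set was -0.08, with 29 of the 39 below 0 and 3 called, while the median of all tested genes was 0.08. The calls among all tested genes split into 356 higher and 418 lower with TMM scaling, 368 and 112 with library totals, and 897 and 133 on log2(TPM + 1). With the skeletal muscle score of each tumour as a covariate no subunit gene was called, and the median of the set was -0.03; 8 genes were called in all. With the red blood cell score none was called either, the median was -0.08, and 114 genes were called in all (DESeq2 on all libraries called 8 and voom 7). Without the 5 libraries above 1000 CPM of the globin gene Hbb-bs, of which 2 were IgG, 2 propafenone and 1 anti-PD-1, only Cox7c was called and the median was -0.13, while 977 of 16207 genes were called in all.

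Single libraries also decided the count. Without IgG tumour 3, IgG tumour 5, combination tumour 4 or combination tumour 5 no subunit gene was called. Without IgG tumour 4 or combination tumour 2 only Atp5g1 was, without combination tumour 1 Atp5g3 and Atp5g1 were, and without IgG tumour 1 or 2 there were 4. Calls over all tested genes changed as well, from 774 to 5, 67, 147 and 72 in the fits with no subunit gene called, in the order given. They were 617 without IgG tumour 4, 307 and 190 without combination tumours 2 and 1, and 202 and 709 without IgG tumours 1 and 2. Without anti-PD-1 tumour 2, 10 subunit genes and 1067 genes in all were called. Over the 20 such fits Atp5g1 was called in 16, Atp5g3 in 14, Cox6b1 in 13, Cox7c in at least 11, Cox6a2 in 11, Uqcrfs1 in 10 and Atp5c1 in 9. The median of the set lay between -0.21 and -0.14 in all of them.

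**Figure D3:**
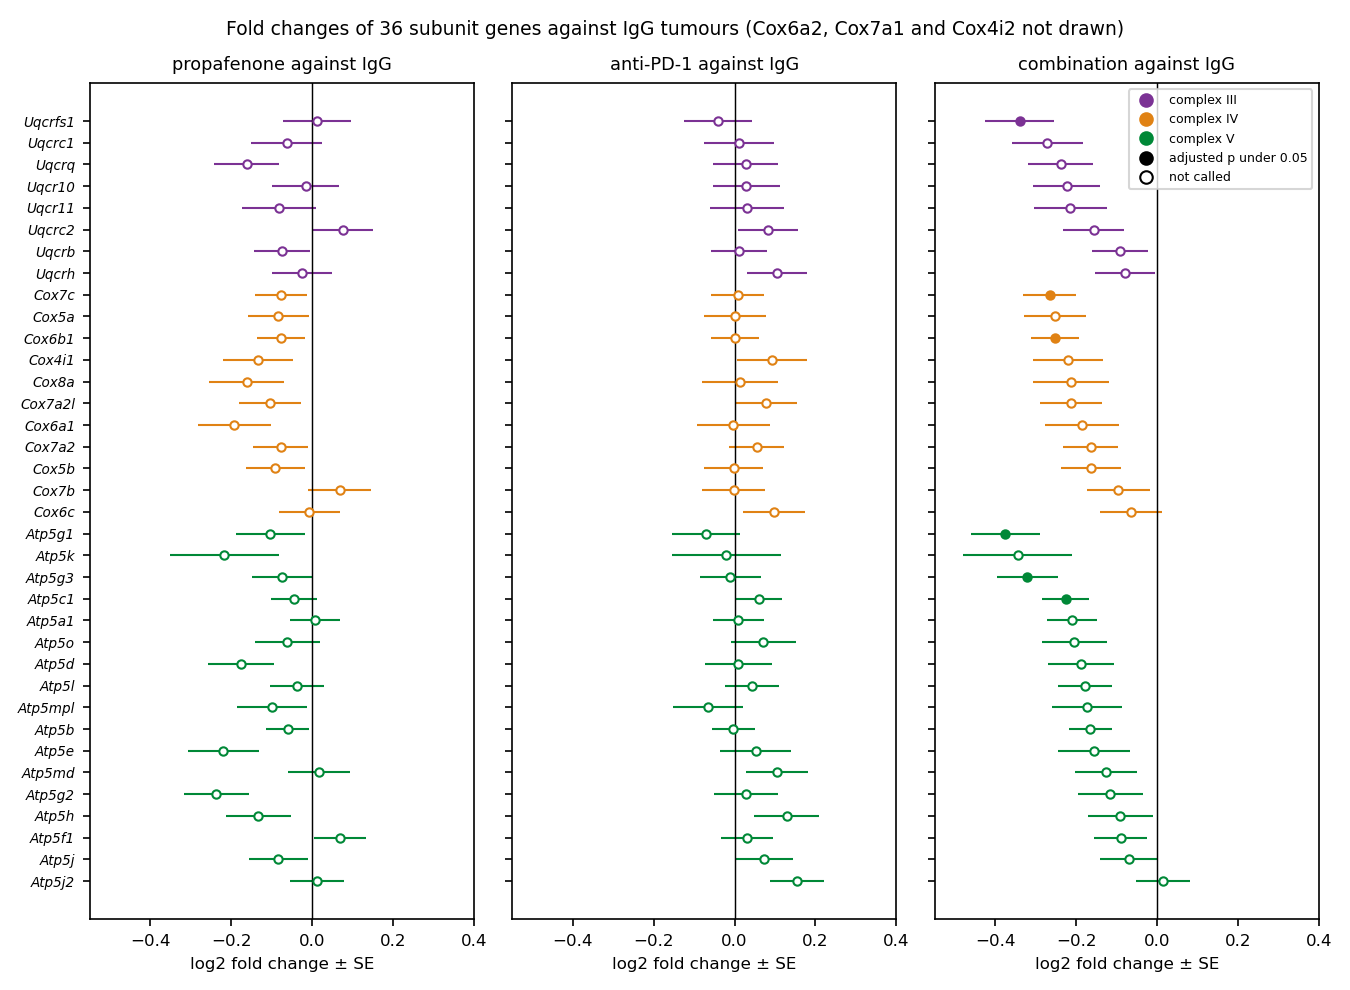
Log2 fold change ± SE (edgeR) of 36 subunit genes in each treatment against the same IgG tumours, grouped by complex; filled points passed the test. Cox6a2, Cox7a1 and Cox4i2 are left out for their wide errors. Filled points occur only in the combination panel, where all drawn genes but Atp5j2 lie below 0.

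By tumour, the level of each complex was taken as the median over its tested genes of log2 CPM centred on all 20 tumours. For complex III it was 0.05 ± 0.09 in IgG, 0.02 ± 0.09 in propafenone, 0.08 ± 0.14 in anti-PD-1 and -0.15 ± 0.08 in combination tumours (SD, n = 5). Complex IV gave 0.07 ± 0.07, -0.01 ± 0.06, 0.09 ± 0.13 and -0.12 ± 0.10 in the same order, and complex V 0.05 ± 0.08, -0.02 ± 0.05, 0.09 ± 0.15 and -0.12 ± 0.07. The groups overlapped for each complex: the lowest IgG tumour was at -0.10 for complex III, where the highest combination tumour was at -0.05.

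**Figure D4:**
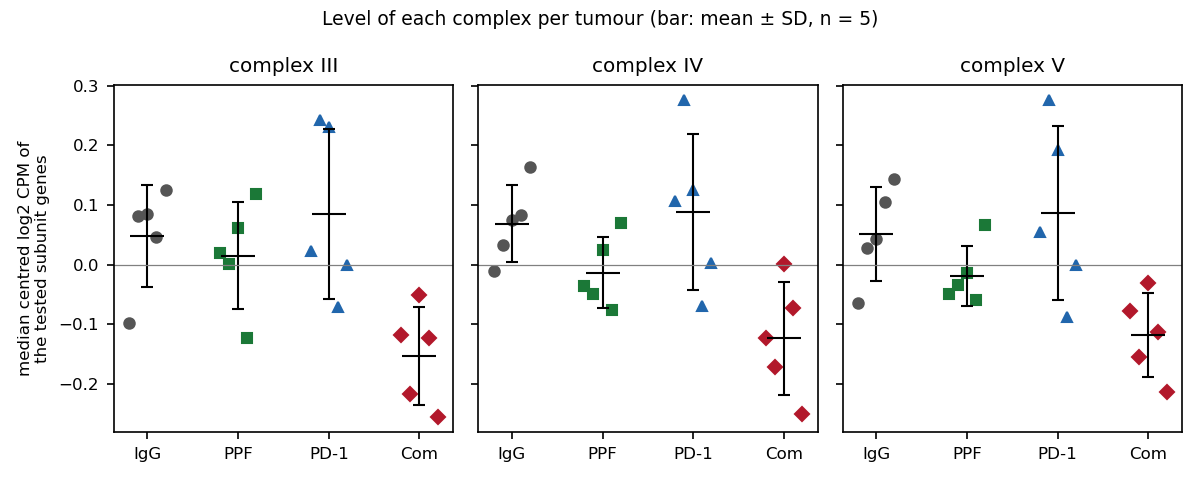
Level of complexes III, IV and V in each tumour (median centred log2 CPM of the tested subunit genes), by group (PPF, propafenone; PD-1, anti-PD-1; Com, combination), with mean ± SD over 5 tumours. Combination means lie at -0.15, -0.12 and -0.12, and anti-PD-1 tumours spread most widely.

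Cox6a2 was the 1 tested subunit gene called higher in combination than in IgG tumours. It lies on the minus strand at chr7:128205435-128206387 and shares 70 exonic bases with Itgad on the other strand, a gene that cannot be told apart there if strand was not used in counting. Its levels were 0.311, 0.274, 0, 0.222 and 0.553 CPM in IgG, 0.334, 0.409, 0.13, 0.446 and 0.31 in propafenone, 1.09, 0.576, 0.964, 0.835 and 1.03 in anti-PD-1, and 0.989, 2.1, 0.269, 1.88 and 1.31 in combination tumours. Combination tumour 3 lay within the IgG range and the other 4 above it; all anti-PD-1 tumours lay above all IgG tumours.

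The log2 fold change of Cox6a2 in the combination against IgG was 2.26 ± 0.60 (edgeR, adjusted p = 0.038), from summed expected counts of 79 and 421. It was 1.18 (adjusted p = 0.50) with the muscle score as a covariate and 2.52 (adjusted p = 0.099) with the red blood cell score. Against IgG it was 1.72 ± 0.60 in anti-PD-1 (adjusted p = 0.50) and 0.27 ± 0.60 in propafenone tumours (adjusted p = 0.97).

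As a share of Cox6a1 and Cox6a2 transcripts in TPM, Cox6a2 made up 0.153 ± 0.105% in IgG, 0.214 ± 0.0848% in propafenone, 0.538 ± 0.155% in anti-PD-1 and 0.894 ± 0.501% in combination tumours (SD, n = 5). Cox6a1 thus supplied nearly all transcripts of this subunit in each group.

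Cox7a1, the muscle isoform of subunit VIIa (plus strand, chr7:30184144-30186078), did not move with Cox6a2. It had 2.45, 1.58, 2.66, 2.3 and 1.69 CPM in IgG, 2.48, 2.27, 2.68, 2.02 and 3.49 in propafenone, 1.95, 3.04, 0.998, 1.84 and 1.92 in anti-PD-1, and 1.63, 1.01, 1.95, 1.58 and 0.994 in combination tumours. The combination overlapped IgG and lay below all propafenone tumours. The log2 fold change was -0.58 ± 0.27 against IgG (edgeR, adjusted p = 0.19) and -0.85 ± 0.27 against propafenone (adjusted p = 0.068). Its share of Cox7a1 and Cox7a2 transcripts was 1.93 ± 0.438% in IgG, 2.45 ± 0.419% in propafenone, 1.65 ± 0.493% in anti-PD-1 and 1.44 ± 0.336% in combination tumours.

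Cox8b, the muscle isoform of subunit VIII, had too few counts to be tested. Counts above 0 occurred in 1 of 5 IgG, 2 of 5 propafenone, 3 of 5 anti-PD-1 and 5 of 5 combination tumours, with summed expected counts of 4, 15, 24 and 63. Cox4i2 ranged from 0.114 to 1.64 CPM over the 20 tumours, with overlapping groups in all comparisons. Its log2 fold change in the combination against IgG was -0.05 ± 0.50 (edgeR, adjusted p = 0.96).

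Slow or cardiac muscle markers, a separate list, gave no call in the combination against IgG. Of these, 5 of 6 tested were below 0, with a median log2 fold change of -0.15. Skeletal muscle markers moved with Cox6a2 and against Cox7a1. Of 20 such markers 9 were higher in combination than in IgG tumours, led by Casq1, Pvalb, Ckm and Myh4, and none lower. Over the 20 tumours, Cox6a2 (log2 of CPM + 0.1) followed the muscle score, the mean centred log2 CPM of the markers, with Pearson r = 0.751 (permutation p = 0.00013, adjusted over 4 relations 0.00052) and Spearman rho = 0.746 (permutation p = 0.00023, adjusted 0.00092). Leaving out the 2 tumours farthest from the median score gave r = 0.93. With group means removed r was 0.542 (permutation p = 0.0138, adjusted 0.0551), so within groups the relation did not pass.

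Cox7a1 ran the other way, with r = -0.624 (permutation p = 0.00318, adjusted 0.00555) and rho = -0.696 (permutation p = 0.00072, adjusted 0.00144). It gave r = -0.686 without the 2 farthest tumours and r = -0.542 with group means removed (permutation p = 0.0571, adjusted 0.114). Cox8b gave r = 0.617 (permutation p = 0.00416, adjusted 0.00555) and rho = 0.602 (permutation p = 0.0056, adjusted 0.00747), with r = 0.561 without the 2 farthest tumours and r = 0.327 within groups (permutation p = 0.221, adjusted 0.295). Cox4i2 gave r = -0.0879 (permutation p = 0.714, adjusted 0.714) and rho = -0.0647 (permutation p = 0.787, adjusted 0.787), and r changed sign to 0.376 without the 2 farthest tumours. All permutation tests were two-sided.

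**Figure D5:**
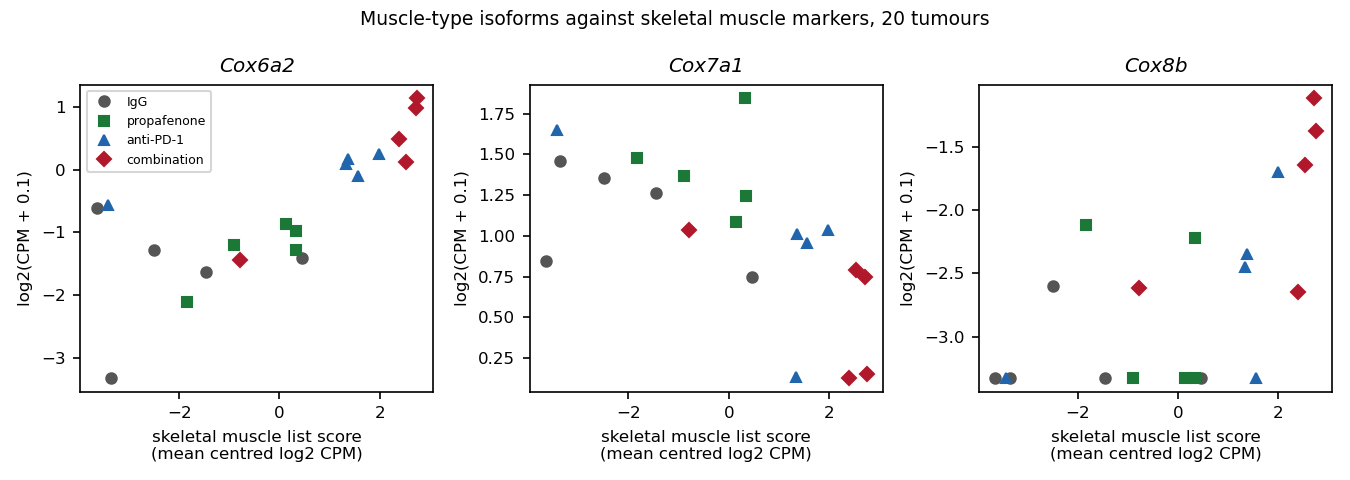
Log2(CPM + 0.1) of Cox6a2, Cox7a1 and Cox8b against the skeletal muscle marker score of each of the 20 tumours, coloured by group. Cox6a2 and Cox8b lie higher at higher scores (r = 0.751 and 0.617) and Cox7a1 lower (r = -0.624). Cox8b had counts above 0 in 11 of the 20 tumours, and the others share its lowest value. Combination tumour 3 is the red point with a score below 0.

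Combination tumours were also compared with each single treatment. Against propafenone, 1 of the 39 was called lower, Uqcrfs1, with a log2 fold change of -0.35 ± 0.08 (edgeR, adjusted p = 0.031). Each of its combination tumours lay below each propafenone tumour. None was called higher. Over all tested genes 2.21% were called lower and 1.67% higher. The median of the set was -0.11 and 31 of the 39 were below 0; with the red blood cell score as a covariate the median was 0.02. Nearest to the threshold came Atp5a1 (-0.22 ± 0.06, adjusted p = 0.053), Cox6a2 (2.0 ± 0.59, adjusted p = 0.056) and Atp5g3 (-0.25 ± 0.08, adjusted p = 0.063).

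In that comparison the groups did not overlap for 8 of the 39, all lower in the combination, against 4.88% of tested genes lower and 3.65% higher. Complex III had 3 of these, Uqcrfs1, Uqcrc1 and Uqcrc2, named after their values were seen. Atp5g2 stood apart from its partner genes at 0.12 ± 0.08 (adjusted p = 0.37), and the mature protein it encodes is the same as that of Atp5g1 (-0.27 ± 0.09) and Atp5g3. The count of 1 was 0 without IgG tumour 4 or 5, propafenone tumour 1, 3 or 5, or any 1 combination tumour. It was 10 without propafenone tumour 4, 5 without anti-PD-1 tumour 2, 3 without anti-PD-1 tumour 3 and 2 without IgG tumour 3. Calls over all tested genes, 616 with all libraries, were 1882, 959, 718 and 547 in these last 4 fits. In the fits with 0 they ran from 4 (without propafenone tumour 3) to 405 (without IgG tumour 5).

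Against anti-PD-1, edgeR called none of the 39, and 0% of all tested genes in either direction. At an unadjusted p under 0.05 stood 29 of the 39, against 1552 of all tested genes, and 38 of the 39 were below 0. The median of the set was -0.22, against -0.01 over all tested genes. DESeq2 called 1 of the 39, Atp5c1, and 7 of all 15875 tested genes; voom called none of either. Atp5c1 had 493, 522, 528, 461 and 470 CPM in anti-PD-1 tumours, all above the combination tumours, and its log2 fold change was -0.29 ± 0.06 (edgeR, adjusted p = 0.26; DESeq2 -0.27, adjusted p = 0.017). Cox6b1 (-0.25 ± 0.06) and Cox7c (-0.27 ± 0.07) followed, both with an edgeR adjusted p of 0.45. The general subunits of the panel ran from -0.31 (Cox4i1) to -0.14 (Atp5g2). The groups did not overlap for 8 of the 39, all lower, against 1.23% lower and 1.15% higher of all tested genes.

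Cox6a2 had a log2 fold change of 0.54 ± 0.56 in the combination against anti-PD-1 (edgeR, adjusted p = 0.76), with overlapping groups.

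Propafenone alone gave no calls. Against IgG edgeR, DESeq2 and voom called none of the 39, and edgeR called 0% of all tested genes in either direction. At an unadjusted p under 0.05 stood 4 of the 39, against 754 of all tested genes. Atp5g2 had 197, 188, 187, 199 and 212 CPM in IgG and 173, 156, 158, 182 and 165 in propafenone tumours, which do not overlap. Its log2 fold change was -0.24 ± 0.08 (edgeR, adjusted p = 0.91). Atp5e and Atp5d, the epsilon and delta subunits of the central stalk, were at -0.22 ± 0.09 and -0.18 ± 0.08, and Cox6a1 at -0.19 ± 0.09, all with an adjusted p of 0.91.

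On the higher side the smallest p belonged to Cox7a1 (0.28 ± 0.26), Uqcrc2 (0.08 ± 0.07) and Atp5f1, the b subunit (0.07 ± 0.07), with adjusted p of 0.92. The general subunits of the fixed panel ran from Atp5g2 to Uqcrfs1 at 0.01 ± 0.08. The median of the set was -0.08 with 30 of 39 below 0, and -0.07 with DESeq2 size factors and -0.05 with library totals. On log2(TPM + 1), which changes the quantity and the test as well, it was 0.005 with 19 below 0, where the median of all tested genes was 0.05. In CPM the groups did not overlap for Atp5g2 and Atp5d, against 0.706% of tested genes lower and 0.529% higher. On TPM Atp5d overlapped, with 582 to 706 in IgG and 541 to 657 in propafenone tumours.

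Anti-PD-1 alone gave no calls either. Against the same IgG tumours edgeR, DESeq2 and voom called none of the 39, and edgeR called 0% of all tested genes in either direction. At an unadjusted p under 0.05 stood 2 of the 39, Cox6a2 and Atp5j2 (0.15 ± 0.07, adjusted p = 0.61), against 1203 of all tested genes. The smallest p on the lower side belonged to Atp5g1 (-0.07 ± 0.09, adjusted p = 0.92), Atp5mpl (-0.07 ± 0.09) and Cox7a1 (-0.13 ± 0.26). The general subunits of the panel ran from Atp5g1 to Cox4i1 at 0.09 ± 0.09. The median of the set was 0.03 and 10 of the 39 were below 0. Without anti-PD-1 tumour 2 the median was -0.01 with 21 below 0, and without IgG tumour 1 it was -0.01 with 23 below 0. The groups did not overlap for Cox6a2, which was higher, against 0.454% of tested genes higher and 0.498% lower. Anti-PD-1 tumour 2 was the highest of its group for Cox4i1 (479 CPM), Atp5g2 (242 CPM) and Atp5h (229 CPM). On TPM it was the highest for Cox4i1 (1150) and Atp5h (716). For Atp5g2 it had 603 TPM, against 610 in anti-PD-1 tumour 3.

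The interaction asks whether, in log2 units, the change in the combination equals the changes under propafenone and under anti-PD-1 added together. It called none of the 39, and 0% of all tested genes in either direction; DESeq2 and voom also called none of the 39. At an unadjusted p under 0.05 stood 8 of the 39, against 482 of all tested genes. Of the 39, 34 were below 0, with a median of -0.16, against -0.01 over all tested genes. Uqcrc2 had the smallest p, at -0.32 ± 0.11, then Atp5c1 at -0.24 ± 0.08 and Uqcrfs1 at -0.31 ± 0.12, all with an edgeR adjusted p of 0.99. On the higher side stood Atp5g2 (0.09 ± 0.11), Cox4i2 (0.43 ± 0.71) and Cox6a2 (0.27 ± 0.83), also at 0.99. The interaction does not compare the combination with a single treatment. In the direct edgeR comparisons only Uqcrfs1 passed, against propafenone (adjusted p = 0.031), and no subunit gene passed against anti-PD-1. For the other called genes, passing against IgG in the combination alone is not shown by edgeR to be a difference from either single treatment. All comparisons with IgG share the same 5 tumours.

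Other genes of the same machinery were read from separate lists, for the combination against IgG. The 6 mitochondrially encoded genes of complexes III, IV and V gave no call, with a median of -0.15 and all values below 0. Their summed level was 28200 ± 4380 CPM in IgG, 24300 ± 1830 in propafenone, 30500 ± 7910 in anti-PD-1 and 25100 ± 1520 in combination tumours. Of 25 tested assembly factors of complex IV 1 was called, Higd1a, a small protein that associates with complex IV. It had 220, 215, 261, 234 and 243 CPM in IgG and 161, 151, 180, 145 and 127 in combination tumours, without overlap (-0.62 ± 0.15, edgeR, adjusted p = 0.027). None of 6 assembly factors of complex III, 5 of complex V or 4 subunits of complex II was called.

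Carriers that supply ATP synthase with its substrates had 4 of 8 tested genes lower and 1 higher. Vdac1, a channel of the outer membrane, had 1060, 1180, 1220, 1160 and 1200 CPM in IgG and 915, 799, 920, 831 and 829 in combination tumours (-0.44 ± 0.09, edgeR, adjusted p = 0.017). Those groups did not overlap. Slc25a3, the phosphate carrier, was at -0.25 ± 0.06 (adjusted p = 0.025), Slc25a5, an ADP/ATP carrier, at -0.23 ± 0.06 (adjusted p = 0.029) and Vdac3 at -0.27 ± 0.07 (adjusted p = 0.035). Ckmt2, the mitochondrial creatine kinase of muscle, was higher (adjusted p = 0.018). It was above 0 in 1 IgG tumour (0.0654 CPM), in no propafenone tumour and in all combination tumours (0.222 to 1.55 CPM). Ckmt2 thus passed the filter on low counts only through groups where it was high, so its call is not separate support.

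Against propafenone Slc25a3 (-0.24 ± 0.06, adjusted p = 0.031) and Vdac1 (-0.35 ± 0.09, adjusted p = 0.035) were lower in the combination. Ckmt2 was higher (adjusted p = 0.015), with the same limit from the filter. Of 13 regulators of mitochondrial biogenesis none was called in the combination against IgG. Ppargc1a, a coactivator of respiratory genes, was at 0.59 ± 0.22 (edgeR, adjusted p = 0.11), and Esrra, Nrf1 and Gabpa at -0.17 ± 0.10, -0.16 ± 0.12 and -0.05 ± 0.10.

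Some markers of host cells moved in the same comparison. Macrophage markers summed to 44.3 to 203 CPM in IgG and 224 to 494 in combination tumours, and 9 of 15 were called higher. The 4 with the smallest p were Lyz2, Mrc1, Fcgr1 and Itgam. Of 11 fibroblast markers 5 were called higher, Postn, Lum, Fap, Pdgfra and Col3a1, and of 10 endothelial markers 1, Tek. Of 8 tested red blood cell markers 2 were called lower, among them Slc4a1. None was called of the tested markers of T cells (10), keratinocytes (9), adipocytes (7) or brown adipocytes (3), nor of the 12 melanocyte markers. How far host cells account for the values of the subunit genes was not tested.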

How the data were processed

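RNA sequencing of 20 tumours was analysed, 5 in each of 4 groups taken from the treatment labels. The deposited gene table holds expected counts, whole numbers not scaled to a common total; totals were 56 to 64.5 M. Low values pile up at 4 and 8, so how many counts 1 sequenced fragment gives is not known. The second deposited table holds TPM made by the authors. Per the submitters' processing notes, the tools included HISAT2 2.2.1, SAMtools 1.9 and FastQC, and the builds GRCm38 and mm10; the counting tool, annotation release and strand setting are not given in the sources used here. The labels name a SMARTER mRNA kit.

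Testing used edgeR 4.0.16 under R 4.3.3: filterByExpr over the 4 groups, TMM scaling, a robust quasi-likelihood fit with 1 mean per group, and 6 contrasts with 16 residual degrees of freedom. The 15875 genes kept hold 99.98% of the counts, and p-values were adjusted over all of them (Benjamini-Hochberg, threshold 0.05). The scripts were tested on simulated data. DESeq2 1.42.0, limma 3.58.1 (voom, and TPM with pseudocounts 1 and 0.1), other scalings and filters, covariates and single left-out libraries were alternatives. CPM use TMM-scaled totals. Marker relations used 100000 permutations. Near-identical copies were searched with BLAST 2.17.0 in GENCODE transcripts (95% over 100 bases); 24 of the 43 genes had one. Promoters were matched by symbol to RefSeq, and 1 matched sequence, on chromosome 18, was left out. Of the 43 genes only Atp5a1 is annotated on that chromosome.

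Named genes are all called ones, the 3 smallest p per direction where none was called, a panel of 17 subunits and genes that missed the filter, and from other lists all called genes up to 6. The members and lists were chosen with earlier results of these data known. Replicate numbers showed no clear pairing of libraries. With group means removed, correlations over 30 pairs that share a number averaged -0.00694 (-0.41 to 0.369). Of 20 libraries, 7 correlated best with one of their own number in another group, so pairing is not excluded. No library copied another; within groups, chi-square over its degrees of freedom was at least 4.21, on counts divided by 4.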

Additional observations from a re-analysis of the deposited data

Results flagged for a closer look

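In 6 of 164 groups of 5 tumours, 1 tumour stood apart from the other 4 by Dixon's test; chance alone gives about 1 in 20 such groups. IgG tumour 1 had 0.0654 CPM of Cox8b, where the other IgG tumours had 0. The same tumour had 20 CPM of Atp5k, against 24 to 24.7 in the others. Combination tumour 5 had 14.4 CPM of Atp5k, against 18.7 to 20.1. Anti-PD-1 tumour 3 had 342 CPM of Uqcrc2, against 275 to 289, and anti-PD-1 tumour 2 had 229 CPM of Atp5h, against 160 to 175. Propafenone tumour 5 had 113 CPM of Atp5j2, against 105 to 106.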

How the results depend on the processing

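The count of 7 subunit genes called in the combination against IgG (774 of all genes) was 6 with DESeq2 size factors (523 of all genes) or without a filter (463), 8 with the DESeq2 test (1419), 3 with library totals (480), TPM + 1 (1030) or TPM + 0.1 (904), and 0 with the muscle (8) or red blood cell score (114) as a covariate. Leaving out 1 library gave 0 to 10. Settings chosen after seeing the data gave 6 (counts divided by 4, 724 of all genes) and 1 (without the libraries above 1000 CPM of Hbb-bs, 977). The median of the set, -0.186, was -0.077 with TPM at either pseudocount, -0.034 with the muscle score and -0.085 with the red blood cell score. With TPM + 0.1 the median of all genes was 0.10, and the set lay 0.18 below it. The count of 1 against propafenone (616 of all genes) was 0 with library totals (347), 5 with the DESeq2 test (1466), 2 with voom (937), 3 with TPM + 1 (773), 2 with TPM + 0.1 (572), 0 with the red blood cell score (981), 2 with counts divided by 4 (695), and 0 to 10 without 1 library; its median, -0.109, was 0.025 with the red blood cell score. Against anti-PD-1 the DESeq2 test called 1 (7 of all genes), and the median, -0.222, was -0.118 with TPM at either pseudocount. With the replicate number as a block, though numbers showed no clear pairing of libraries, the combination against IgG still called 7. No called gene changed sign in any setting; the causes of the changes were not tested. Depth limits Cox6a2, Cox8b and Cox4i2, which rest on few counts per tumour.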

Other observations

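Of the isoform genes known from testis, Cox8c and Cox7b2 had no count in any of the 20 tumours, and Cox6b2 had few. Summed expected counts of Cox6b2 were 22 in IgG, 93 in propafenone, 21 in anti-PD-1 and 10 in combination tumours, and propafenone tumour 5 alone held 53. Other testis markers summed to at most 0.284 CPM in a tumour.

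The genes for the c subunit of ATP synthase differed in their shares of TPM. Atp5g3 held 66.3 ± 0.693% of the c-subunit transcripts in IgG and 65.1 ± 0.998% in combination tumours (SD, n = 5), Atp5g1 held 10.9 ± 1.08% and 9.13 ± 0.633%, and Atp5g2 held 22.8 ± 1.6% and 25.8 ± 1.22%. In propafenone tumours Atp5g2 held 20.9 ± 2.32%.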
